A study of Saccharomyces cerevisiae with 4 samples.

Results

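The glyoxylate cycle and gluconeogenesis let Saccharomyces cerevisiae grow on carbon sources such as ethanol, acetate and lactate. The cycle bypasses the decarboxylating steps of the TCA cycle, so that acetyl units give net malate and oxaloacetate, and gluconeogenesis turns oxaloacetate back into hexose phosphate. In yeast these genes are known to be repressed by glucose and to be switched on by the activators Cat8, Sip4 and Adr1 when the kinase Snf1 is active. A set of 10 genes was examined, chosen by systematic name with earlier results of these data known. It holds the enzyme genes MDH2, FBP1, PCK1, ICL1, MLS1 and CIT2, the activator genes CAT8, SIP4 and ADR1, and the carboxylate transporter gene JEN1. All 10 are among the 5357 named genes of the table, each has 1 gene model, and all 10 were tested by the authors.

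Messenger RNA was sequenced from the reference strain CEN.PK113-7D (MATa MAL2-8c SUC2), a prototroph, and from the minimal glycolysis strain IMX372, with 2 libraries per strain. IMX372 has the same mating type and the same MAL2-8c and SUC2 alleles, and in addition the alleles ura3-52 and his3-1 and a mutant leu2 allele. It lacks 13 minor paralogs of glycolysis and fermentation, which are PDC5, PDC6, PYK2, ENO1, GPM2, GPM3, TDH2, ADH2, ADH4 and ADH5 together with GLK1, HXK1 and TDH1, the last 3 of them replaced by the markers SpHis5, KlLEU2 and KlURA3. The marker alleles and the deletions cannot be told apart in this comparison. Both strains grew in aerobic batch bioreactors at 30 °C and pH 5 with glucose at 20 g/L, and were sampled in mid-exponential phase, so all values below are levels during growth on glucose. Expression is given as FPKM, the number of fragments scaled by model length and by library size, as 1 value for each strain that the authors pooled over its libraries. No value therefore has an SD or an n. Reads per gene are not known. Per the labels, each data set holds 1 Gb or more, in reads of 51 bases. The sample records give 4 cultivations per strain. The labels do not tie the libraries of a strain to separate cultivations, so the spread behind the authors' q-value may be technical.

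As a check of the strain labels, GPM3, a deleted phosphoglycerate mutase gene, had an FPKM of 57.7 in the reference and is listed at 0 in the minimal glycolysis strain. Both strains are labelled MATa. The 4 markers of that mating type, MFA1, MFA2, STE2 and BAR1, lay between FPKM 140 and 61347 in the reference, and the 3 alpha markers, STE3 and the alpha-factor genes MF(ALPHA)1 and MF(ALPHA)2, between 6.45 and 32.3. None of these 7 markers was called different by the authors' q of at most 0.05. Only 0.791% of all 5437 tested models were, so this count does not set the markers apart. The part of the markers in the results below was not tested.

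The 10 genes were mostly weakly expressed in both strains, and none was called different between them. Of the 10, 9 stayed under FPKM 30 in both strains, and CIT2 alone was above 100. MDH2 had the largest ratio of the set, 1.52-fold higher in the minimal glycolysis strain, and SIP4 the smallest, at 0.697 of the reference level. Both missed the threshold. By the authors' Cuffdiff test, 0 of the 10 genes passed a q of 0.05, against 0.791% of all 5437 tested models (43 models, 28 of them higher, or 0.515%, and 15 lower, or 0.276%). At an unadjusted p of at most 0.05 from the authors' deposited table, MDH2 was higher and SIP4 was lower, so 2 of 10 passed where 3.27% of all tested models did (1.89% higher and 1.38% lower). The 10 genes were chosen with earlier results of these data known, so these shares are no test of the set. The log2 ratio is that of the minimal glycolysis FPKM to the reference FPKM, and its median was -0.12 over the 10 genes and 0.01 over all tested models. Among the 10 genes, 4 lay above 0 and 6 below. RNA from a culture does not tell fewer expressing cells from less RNA per cell.

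**Figure D1:**
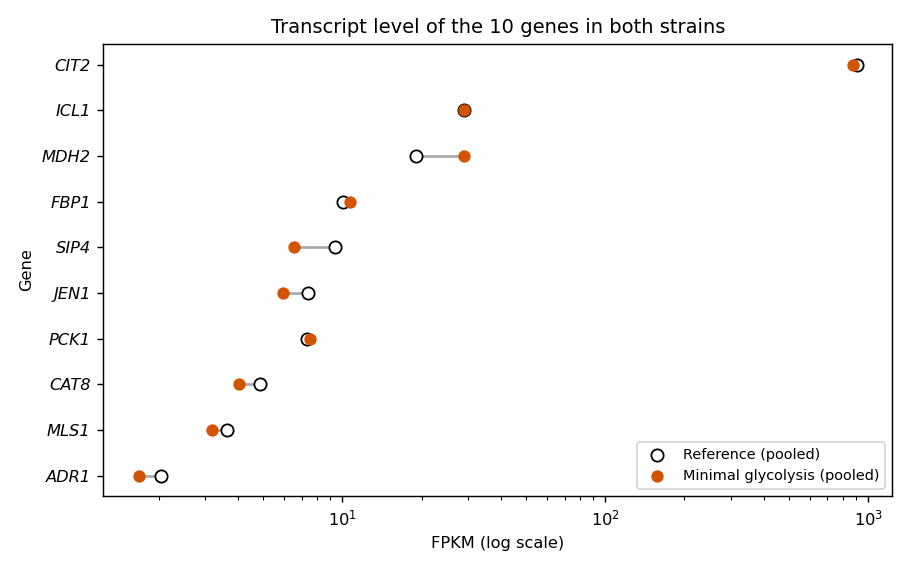
FPKM on a log axis for each of the 10 genes, open circles for the reference and filled circles for the minimal glycolysis strain, each a pooled value without error. MDH2 is at 19.0 in the reference and at 28.9, level with ICL1 at 29.1, in the minimal glycolysis strain, SIP4 is at 9.39 and 6.54, and the pairs of CIT2, ICL1, FBP1 and PCK1 nearly coincide.

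The levels, which are per kilobase and so can be set beside each other, spanned a wide range. CIT2 was at FPKM 903 in the reference, above 93.7% of tested models. The next gene, ICL1, was 31.1-fold lower at 29.0, followed by MDH2 at 19.0, FBP1 at 10.02, SIP4 at 9.39, JEN1 at 7.39, PCK1 at 7.34, CAT8 at 4.85, MLS1 at 3.63 and ADR1 at 2.03. ADR1 stood at the 0.883 percentile of all tested models and ICL1 at the 25.5 percentile. FBP1 was only 1.07-fold above SIP4 and JEN1 only 1.01-fold above PCK1, so the order within these pairs cannot be taken as a difference. In the minimal glycolysis strain ICL1 and MDH2 were as close, at 1.01-fold. There PCK1 stood 1.15-fold above SIP4 and SIP4 1.11-fold above JEN1, so that neighbours in this order are again not separated, and the other places in the order were the same.

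MDH2 (YOL126C) encodes the cytosolic malate dehydrogenase, which in yeast forms part of the glyoxylate cycle and supplies gluconeogenesis. Its model lies on chromosome 15 from 81666 to 82799 of the CEN.PK113-7D assembly. It had an FPKM of 19.0 in the reference and of 28.9 in the minimal glycolysis strain, a log2 ratio of 0.60. The authors' deposited table gives p = 0.001 and q = 0.121 for it (Cuffdiff test across all models). Its p held place 45 of 5437, directly after the 43 called models and MUP1, a methionine permease gene, whose log2 ratio was 0.55 with q = 0.0989 in the authors' deposited table. Its ratio held place 37 from the highest. The smallest called change in the table, taken over increases and decreases together, was 1.57-fold. MDH2, at 1.52-fold, was just under it in size. Between mean levels of FPKM 20 and 100, 90% of the 2535 models had log2 ratios from -0.21 to 0.25. In that class 18 models reached the ratio of MDH2 or more, of which 17 were called and MDH2 was the other one. MDH2 is near the lower bound of the class. At a mean FPKM of 5 to 20, 2 models reached its ratio, of which 1 was called. Below 5, 7 models did, of which 0 were called. The called models are not spread evenly over the genome. Of the 28 models called higher over all levels, 10 form a run of neighbours on chromosome 3 and 9 form a run on chromosome 5.

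**Figure D2:**
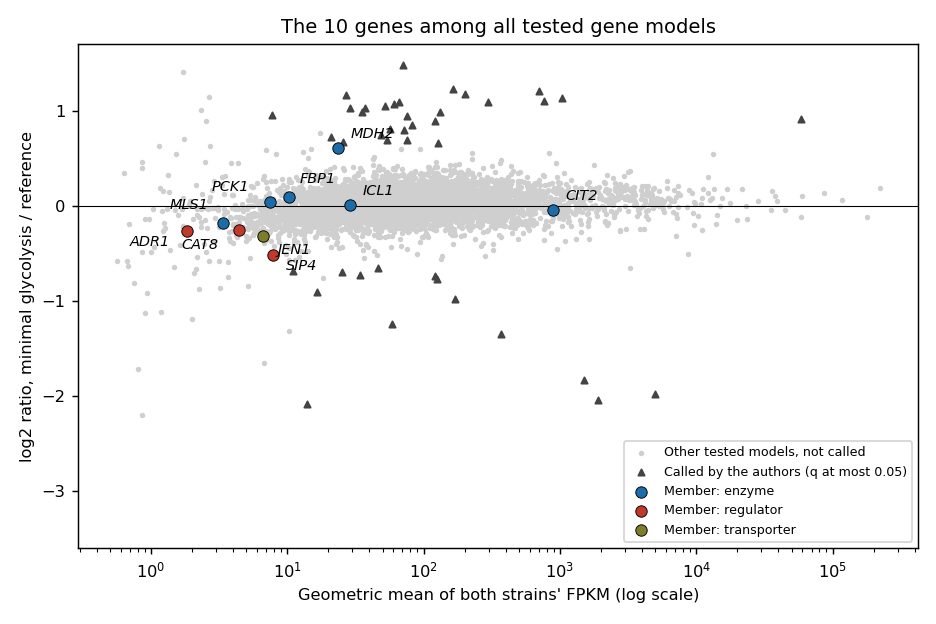
The log2 ratio (minimal glycolysis to reference) against the geometric mean FPKM of both strains (log axis), for all tested models with a value in both, with called models as triangles and the 10 genes as large circles. MDH2 at 0.60 lies at the lower edge of the called triangles, SIP4 at -0.52 lies below most models of its level, and the other genes lie within the grey cloud.

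The other malate dehydrogenase genes did not share the ratio of MDH2. MDH1, for the mitochondrial enzyme, was at FPKM 302 in the reference and 290 in the minimal glycolysis strain, a log2 ratio of -0.06. MDH3, for the peroxisomal enzyme, was at 231 and 236, a log2 ratio of 0.03. MDH2 thus made up 3.45% of the summed FPKM of the 3 genes in the reference and 5.20% in the minimal glycolysis strain. The sum itself was 552 in the reference and 555 in the minimal glycolysis strain. Whether the ratio of MDH2 differs from those of MDH1 and MDH3 was not tested, since the table holds no values per library.

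The genes beside MDH2 on chromosome 15 had smaller ratios. RPL25, a ribosomal protein gene that ends 596 bp before the MDH2 model, was at FPKM 4599 and 5242, a log2 ratio of 0.19. TRM13, a transfer RNA methyltransferase gene that begins 913 bp after it, had a log2 ratio of 0.11. The 10 nearest tested models, 5 on each side, had a median of 0.12 and ran from -0.14 to 0.54. The highest, YOL131W, stood at FPKM 1.26 in the reference and was chosen for mention after its value was seen. No model in the table overlaps MDH2, or any of the other 9 genes. The library kit does not mark the strand, so transcripts reaching in from a neighbour cannot be told apart from a gene's own.

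**Figure D3:**
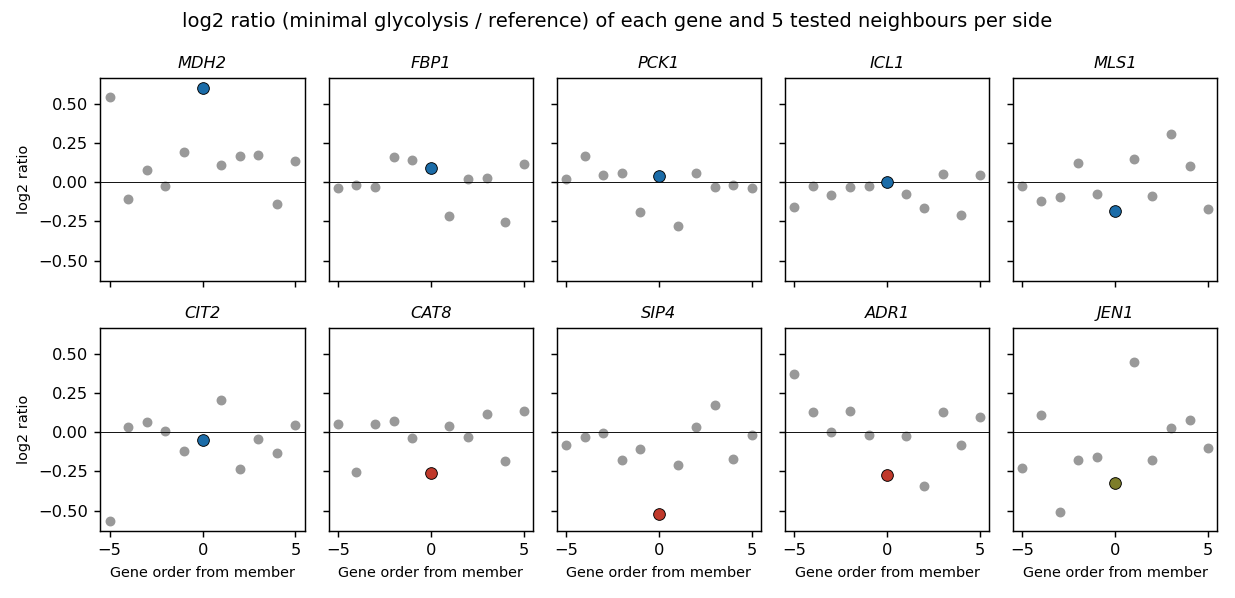
The log2 ratio of each of the 10 genes (large point at 0) and of the 5 nearest tested models on each side, in gene order on the CEN.PK113-7D assembly. MDH2 at 0.60 lies above and SIP4 at -0.52, CAT8 at -0.26 and MLS1 at -0.18 lie below all 10 of their neighbours, CAT8 and MLS1 by little, and the other genes lie among theirs.

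FBP1 and PCK1 are the genes of the enzymes that are specific to gluconeogenesis, fructose-1,6-bisphosphatase and phosphoenolpyruvate carboxykinase. FBP1 (YLR377C, chromosome 12, 858914 to 859960) was at FPKM 10.02 in the reference and 10.7 in the minimal glycolysis strain, a log2 ratio of 0.09. PCK1 (YKR097W, chromosome 11, 631118 to 632767) was at 7.34 and 7.53, a log2 ratio of 0.04. Both had q = 0.998 in the authors' deposited table, with p = 0.678 and 0.858. These levels were low in both strains, at or below the 7.61 percentile of all tested models.

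ICL1 and MLS1 encode isocitrate lyase and malate synthase, the enzymes that define the glyoxylate cycle. ICL1 (YER065C, chromosome 5, 283305 to 284978) had nearly the same FPKM in both strains, 29.0 and 29.1, a log2 ratio of 0.003, with p = 0.985 in the authors' deposited table. Its paralog ICL2, for a mitochondrial 2-methylisocitrate lyase, was at 19.2 and 20.4, a log2 ratio of 0.08. MLS1 (YNL117W, chromosome 14, 400347 to 402011) was at 3.63 and 3.19, a log2 ratio of -0.18, with p = 0.438 in the authors' deposited table. DAL7, the gene of a second malate synthase that is known for its control by nitrogen sources, was at 40.3 and 35.5, also a log2 ratio of -0.18. DAL7 made up 91.8% of the summed FPKM of both malate synthase genes in either strain. The file's own annotation calls the MLS1 and DAL7 products nearly identical, and how reads that match both were counted is not stated, so the levels of this pair are uncertain.

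CIT2, the citrate synthase gene of the glyoxylate cycle and a known target of the retrograde signal from mitochondria, was the abundant gene of the set. Its model (YCR005C, chromosome 3, 120613 to 121995) was at FPKM 903 in the reference and 873 in the minimal glycolysis strain, a log2 ratio of -0.05, with p = 0.765 in the authors' deposited table. CIT1, for the mitochondrial citrate synthase, was at 428 and 370, a log2 ratio of -0.21, and CIT3, for a minor mitochondrial form, was at 16.7 and 14.2, a log2 ratio of -0.23. CIT2 held 67.0% of the summed FPKM of the 3 genes in the reference and 69.4% in the minimal glycolysis strain. CIT1 and CIT2 are similar in sequence, and the same uncertainty about shared reads applies.

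**Figure D4:**
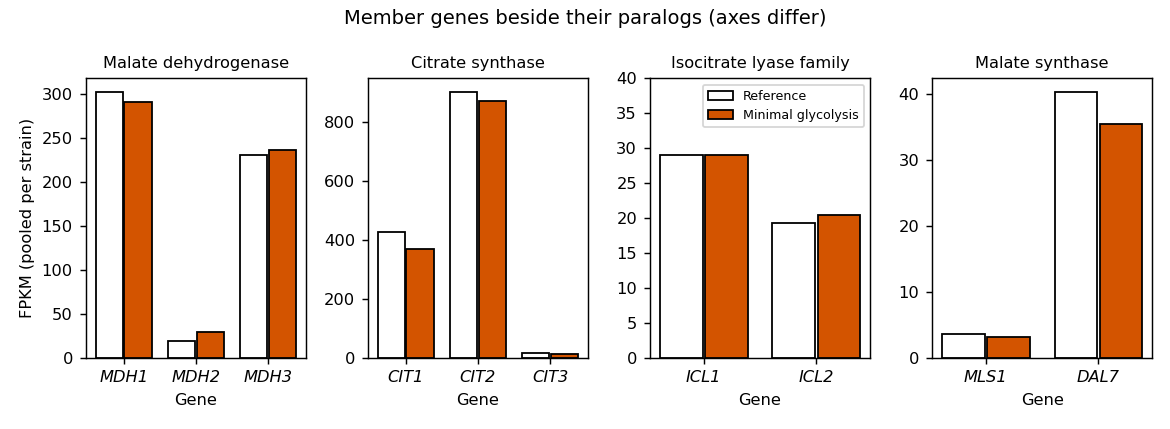
FPKM of MDH2, CIT2, ICL1 and MLS1 beside their paralogs, white bars for the reference and filled bars for the minimal glycolysis strain, each a pooled value without error and each panel with its own axis from 0. CIT2 is the most abundant citrate synthase gene, MDH2 the least abundant malate dehydrogenase gene, and DAL7 exceeds MLS1 in both strains.

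Of the 6 enzyme genes, CIT2 and ICL1 share their chromosomes with the runs of neighbouring models that the authors called higher. CIT2 lies 30.5 kb and 10 tested models away from the run of 10 models from MAK32 to RHB1 on chromosome 3. ICL1 lies 62.0 kb and 31 tested models away from the run of 9 models from PUP3 to RTT105 on chromosome 5. Neither gene was inside a run, and neither had a log2 ratio beyond 0.1 in size.

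The 3 activator genes all had log2 ratios below 0. SIP4 (YJL089W), which encodes a zinc cluster activator that binds the carbon source response element, lies on chromosome 10 from 248491 to 250980. It was at FPKM 9.39 in the reference and 6.54 in the minimal glycolysis strain, a log2 ratio of -0.52. The authors' deposited table gives p = 0.00815 and q = 0.652 (Cuffdiff test across all models), so SIP4 was not called. Its p held place 68 and its ratio place 48 from the lowest. Among the 747 models with a mean FPKM of 5 to 20, 90% had log2 ratios from -0.31 to 0.20, and 12 were at or below SIP4, of which 3 were called. The neighbours of SIP4 had a median log2 ratio of -0.06, with ARG3, an arginine synthesis gene that begins 379 bp after it, at -0.21.

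CAT8, the zinc cluster activator known to act upstream of SIP4 and of the gluconeogenic genes, was at FPKM 4.85 in the reference and 4.05 in the minimal glycolysis strain. Its log2 ratio was -0.26, with p = 0.175 in the authors' deposited table. ADR1, the zinc finger activator of genes for ethanol and fatty acid use, was at 2.03 and 1.69. Its log2 ratio was -0.27, with p = 0.23 in the authors' deposited table. CAT8 (YMR280C, chromosome 13, 821557 to 825846) and ADR1 (YDR216W, chromosome 4, 894065 to 898036) are both long, and both are near the lower end of what was measured. In their level class, below a mean FPKM of 5, 90% of the 130 models had log2 ratios from -0.87 to 0.59. Both genes lie inside that range. The classes go by FPKM alone, and at like FPKM a longer model holds more fragments. The range therefore need not be that of models as long as CAT8 and ADR1. MLS1 falls in the same class.

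JEN1 (YKL217W), the gene of a permease that takes up lactate and pyruvate, was at FPKM 7.39 in the reference and 5.91 in the minimal glycolysis strain. Its model lies on chromosome 11 from 22231 to 24081. The log2 ratio was -0.32, with p = 0.115 in the authors' deposited table, slightly outside the central 90% of models of its level. The genes on either side of it had ratios of different sign. SRY1, a 3-hydroxyaspartate dehydratase gene, had a log2 ratio of -0.16. URA1, for dihydroorotate dehydrogenase, had one of 0.44, with p = 0.00775 and q = 0.641 in the authors' deposited table.

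By role, the 6 enzyme genes had a median log2 ratio of 0.02 with 4 above 0, while the 3 activator genes had one of -0.27 with 0 above 0. These groups differ in coding length, with enzyme genes of 1047 to 1674 bp and activator genes of 2490 to 4290 bp. Across all 5435 models with a ratio, the log2 ratio went down with coding length (Spearman's rho = -0.331, across genes that share the same pooled libraries). It was also lower in genes of low level, with a median of -0.12 below a mean FPKM of 5 and of 0.04 above 100. After subtraction of the median of models of like length, SIP4, ADR1 and CAT8 stood at -0.48, -0.18 and -0.17. After subtraction of the median of models of like level they stood at -0.43, -0.15 and -0.14. For the enzyme genes MDH2, FBP1, PCK1, ICL1, MLS1 and CIT2 the length correction gave 0.58, 0.04, 0.05, 0.02, -0.17 and -0.04. In the same order the level correction gave 0.62, 0.17, 0.14, 0.003, -0.06 and -0.08. The remaining difference between the roles was not tested.

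Of the wider pathway, 17 partner and paralog genes were all tested and 0 were called, with 0 at an unadjusted p of at most 0.05 in the authors' deposited table. Over all tested models 0.791% were called and 3.27% had such a p, and these shares are also the background for the lists below. The median log2 ratio of the 17 genes was -0.16, with 4 above 0 and 13 below. Of all 5435 models with a ratio, 2551 lay below 0. The median of the 17 was -0.13 after the correction for coding length and -0.11 after that for level. A shared decrease was not tested. IDP2, for a cytosolic isocitrate dehydrogenase that makes NADPH, had the largest ratio, at FPKM 12.8 and 16.3, a log2 ratio of 0.36, with p = 0.0702 in the authors' deposited table. MAE1, for the mitochondrial malic enzyme, was at 317 and 265, a log2 ratio of -0.26. SFC1, for a mitochondrial carrier of succinate and fumarate, was at 1.38 and 1.18, a log2 ratio of -0.23. ACO1, for aconitase, was at 629 and 536, also a log2 ratio of -0.23.

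Genes known as targets of Cat8 or Adr1 had ratios of both signs. Of 16 such genes 14 were tested, 0 were called, and 0 had an unadjusted p of at most 0.05 in the authors' deposited table. The median log2 ratio was 0.04, with 8 above 0 and 6 below. After IDP2, the largest ratios among those named were 0.24 for POT1, the peroxisomal thiolase gene, and 0.20 for POX1, the acyl-CoA oxidase gene. POT1 was at FPKM 6.47 and 7.66 and POX1 at 5.14 and 5.91, so they were as weakly expressed as FBP1 and PCK1. ICL2, IDP2, SFC1 and ACS1 stand in both this list and the partner list. YAT1 and GUT1 were not analysed here.

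The genes of the glucose signal upstream of Cat8 had ratios of ordinary size. Of 17 genes around the kinase Snf1 and the Mig repressors, 0 were called and 0 had an unadjusted p of at most 0.05 in the authors' deposited table. Over all tested models these shares were 0.791% and 3.27%, so counts of 0 do not set this list apart. Their median log2 ratio was -0.01, and the values ran from -0.21 to 0.26. This is about the span of the central 90% of all models between mean levels of FPKM 20 and 100, -0.21 to 0.25. RDS2, a zinc cluster regulator of gluconeogenic genes, was highest at 0.26, and HAP4, the activator subunit of the respiratory HAP complex, lowest at -0.21. MIG3, for a repressor related to Mig1, was at 0.18, and ELM1, one of the kinases that activate Snf1, at 0.17.

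In the retrograde pathway, which controls CIT2, 0 of 8 genes were called and 0 had an unadjusted p of at most 0.05 in the authors' deposited table. The median log2 ratio was -0.02. BMH1, for a 14-3-3 protein, was at -0.20, MKS1, for a negative regulator of the pathway, at 0.19, and RTG1, for a subunit of the activator, at 0.14. DLD3, another known target of the pathway, was at FPKM 2588 and 2386, a log2 ratio of -0.12, beside -0.05 for CIT2.

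The GID ubiquitin ligase is known to mark Fbp1, Mdh2, Icl1 and Pck1 for breakdown when glucose returns. Of its 9 listed genes 8 were tested, 0 were called and 0 had an unadjusted p of at most 0.05 in the authors' deposited table. The median log2 ratio was 0.05. UBC8, for the ubiquitin-conjugating enzyme, was at FPKM 85.9 and 103.5, a log2 ratio of 0.27, GID7 was at 0.19, GID8 at 0.13 and VID28 at 0.09. Protein levels were not measured in these libraries, and UBP14 was not analysed here.

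Genes that are known to respond to low glucose were also set beside the 10 genes, and 4 of 6 were tested with 0 called. HXT2 was at FPKM 200.9 and 254, a log2 ratio of 0.34, with p = 0.0399 in the authors' deposited table. HXT4 was at 1231 and 949, a log2 ratio of -0.38, with p = 0.025 in the authors' deposited table. SUC2, for invertase, and HXT5 had log2 ratios of -0.25 and -0.20. Of the 4 genes, 1 lay above 0 and 3 below, with a median log2 ratio of -0.23. An unadjusted p of at most 0.05 in the authors' deposited table was thus held by 2 of the 4, 1 higher and 1 lower. Over all tested models 3.27% had such a p. A shared direction was not tested. The part of these genes in the values of the 10 genes was not tested either, and HXT6 and HXT7 were not analysed here.

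**Figure D5:**
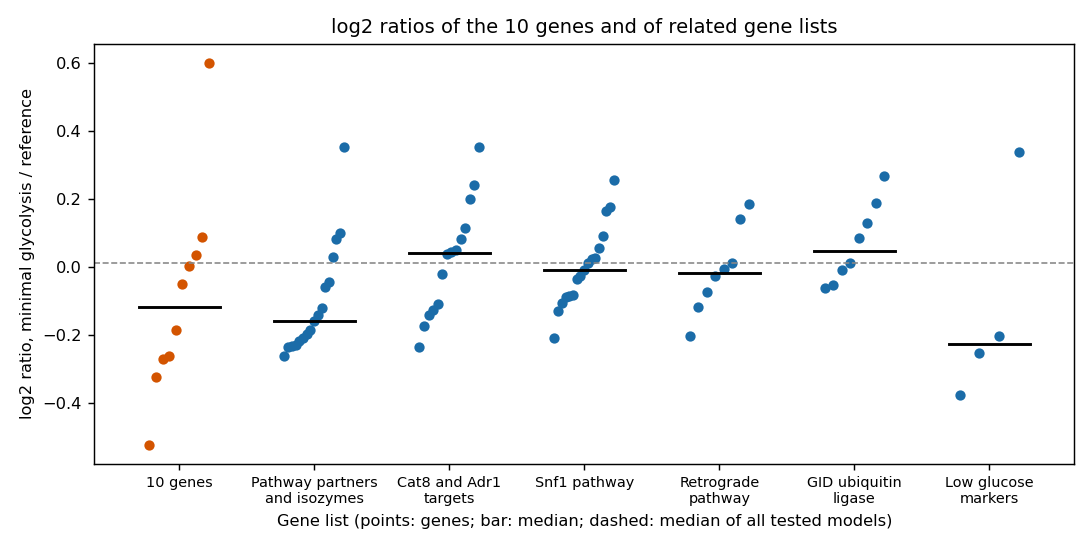
The log2 ratio (minimal glycolysis to reference) for each gene of the set of 10 and of 6 related lists, with the median of each as a bar and the median of all tested models, 0.01, as a dashed line. MDH2 at 0.60 and SIP4 at -0.52 lie beyond every gene of the related lists, which run from -0.38 to 0.36.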

How the data were processed

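The submitters' processing notes name Cuffdiff and Cufflinks, SAMtools 0.1.7-r510, BWA 0.5.9-r16 and CASAVA 1.8.2 without saying what each did, and per the labels the genome used was that of CEN.PK113-7D. The deposited table holds FPKM per strain, pooled by the authors over 2 libraries. The log2 ratio, p-value and q-value in it are also deposited values of the authors. A signed fold and a test statistic, deposited by the authors and treated as scores, were not used. Groups follow the strain label.

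No pseudocount was added when ratios were recomputed from FPKM, and the largest difference from the deposited log2 was 1.31e-05. A gene was called at the authors' q of at most 0.05 with status OK, and lists keep the longest tested model per gene. No test of another kind could be run on pooled values, and leaving out a library was not possible. Low FPKM times length showed no common step (at best 17.5% of 200 values within 0.05 of a whole multiple), so read depth is unknown. Starts are counted from 1. Symbols come from the R64 annotation through systematic names, and no R64 coordinate or sequence is used. Promoter motifs and protein ends, which were planned, were not analysed here.

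The members and lists were chosen with earlier results of these data known. All 10 genes are named with values. Of each list the called genes, or otherwise the 4 largest absolute log2 ratios at an FPKM of at least 1 in both strains, are named, with MDH1, MDH3, CIT1, CIT3, ICL2, DAL7, both flanking genes of MDH2, and GPM3. Alternatives were other thresholds, pseudocounts of 1 and 5, an FPKM filter of 10, centring, and subtraction of a median over 201 models nearest in coding length or level. Functions were tested on simulated data. Python 3.11.15 with pandas 2.3.3 and scipy 1.17.1 was used.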

Additional observations from a re-analysis of the deposited data

How the results depend on the processing

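No paired analysis was possible because the table holds 1 pooled value per strain, and for the same reason no library could be left out. None of the 10 genes was called with a q of 0.01, a 2-fold change, an FPKM of at least 10 or a recomputed Benjamini-Hochberg adjustment, and an unadjusted p of at most 0.05 gave 2 of them, MDH2 and SIP4. Over all models the count went from 43 to 20 with a 2-fold change and to 178 with an unadjusted p, which also gave 2 of the low glucose genes. The log2 ratio of MDH2 ran from 0.50 with 5 FPKM added to 0.62 after the level correction, and that of SIP4 from -0.53 to -0.32. Over the same settings JEN1 ran from -0.33 to -0.18, CAT8 from -0.27 to -0.12, ADR1 from -0.28 to -0.07, MLS1 from -0.20 to -0.06, PCK1 from 0.02 to 0.14, FBP1 from 0.04 to 0.17 and CIT2 from -0.08 to -0.04. The median of the 10 genes, -0.12, was -0.06 with 5 FPKM added and -0.07 after the level correction, and became 0.046 with an FPKM of at least 10, which kept 4 genes, 3 of them above 0. ICL1 changed sign to -0.0086 when centred on the median of all models. The median of the mating type a markers, 0.01, became -0.0016 when centred and -0.019 after the level correction, and that of the alpha markers, -0.39, became -0.24 with 5 FPKM added and 0.13 with an FPKM of at least 10. The cause was not tested. Genes at low FPKM, such as ADR1, CAT8 and MLS1, are those for which the measured level limits what can be seen.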

Other observations

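FRE2, a ferric reductase gene 3 tested models before JEN1 on chromosome 11, had an FPKM of 11.7 in the reference and 8.23 in the minimal glycolysis strain, a log2 ratio of -0.51, with p = 0.0079 and q = 0.641 in the authors' deposited table. With URA1 at 0.44, the neighbourhood of JEN1 held ratios of both signs within a stretch of 10 tested models, and none of these was called. Both genes were chosen after their values were seen.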
